A study of Mus musculus with 4 samples.

Results

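The HoxC cluster is the run of 9 Hox genes on mouse chromosome 15, Hoxc4, Hoxc5, Hoxc6, Hoxc8, Hoxc9, Hoxc10, Hoxc11, Hoxc12 and Hoxc13. They were picked by symbol from the 31053 genes listed in single-cell RNA-seq data of neonatal oviducts and uteri of the mouse. No level entered this rule, but the members were chosen with earlier results of these data known. All 9 are in the files. Cells came from oviducts and uteri of CD1 (ICR) neonates at postnatal day 3, wild type and untreated, with 2 libraries per organ and 4 in all. Replicates were pools of 3 and of 4 neonates, and the same neonates gave both organs. The 2 libraries per organ are the only replicates, and p-values describe the spread between these pools. The labels name the cells mesenchymal and epithelial, yet only 1.42% to 5.29% of kept cells passed as epithelial.

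Values are UMI counts, 1 per captured RNA molecule. Called barcodes numbered 5716 to 7808 per library, with 61117726 to 114419939 UMIs and a median of 9608 to 11890.5 UMIs per barcode. After filtering, 20164 cells were kept, and cells were assigned to 8 classes by marker genes that include no Hox gene: mesenchyme-like (10318 cells), intermediate stroma (2524), smooth muscle-like (2826), pericyte-like (703), mesothelium-like (1146), epithelium-like (610), blood endothelium-like (675) and myeloid-like cells (249), written without the suffix from here on. Intermediate stroma holds the cells between mesenchyme and smooth muscle in Acta2 and Tagln, muscle genes whose level runs on without a gap. It also holds cells above the upper bound that have no UMI of Myh11, Actg2, Cnn1, Synpo2 or Lmod1. Near the lower and upper bounds lie 1563 and 1371 cells. Uterine mesothelium and epithelium are small, with 81 and 65 and with 55 and 75 cells. Library pairs shared 8 to 15 cell barcodes. A level below is CPM, the gene's UMIs per 1000000 UMIs of the summed class in a library, given as mean ± SD over 2 libraries.

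Hox genes encode homeodomain transcription factors that give cells a position along the body axis. In each of the 4 mammalian clusters the genes lie in the order in which they act, from 3′ genes active further forward to 5′ genes active further back, and genes of the same number in different clusters are paralogs. The Müllerian duct, which forms oviduct, uterus and upper vagina, is patterned along its length by Hox genes, best known from Hoxa9, Hoxa10, Hoxa11 and Hoxa13. HoxC genes are less often described in this tract.

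The cluster spans 115.75 kb of the plus strand (GRCm38 with GENCODE M21; the submitters' processing notes name mm10). Hoxc13 lies at its 5′ end (chr15:102921103-102928814) and Hoxc4 at its 3′ end (chr15:103018934-103036852). The homeobox is the part by which the members are known, and its stretch for the recognition helix, which reads DNA, is shown for 5 genes that carry the results: Hoxc4, found in epithelium, Hoxc6 and Hoxc8, the members with the highest UMI levels in oviduct stroma, and the 5′ genes where the organ difference shrinks and turns. All lie in the last exon of a protein-coding transcript. Capitals mark bases that differ from the base most frequent at that position among the 9 genes. Where bases were equally frequent, the one met first in the order from Hoxc4 to Hoxc13 was taken, so a capital there can mark an equally frequent base.
Hoxc4 (chr15:103035786-103035833, plus strand, exon 4 of 4): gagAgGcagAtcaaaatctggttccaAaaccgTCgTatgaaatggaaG
Hoxc6 (chr15:103010877-103010924, plus strand, exon 2 of 2): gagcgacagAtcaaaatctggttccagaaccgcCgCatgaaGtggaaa
Hoxc8 (chr15:102992694-102992741, plus strand, exon 2 of 2): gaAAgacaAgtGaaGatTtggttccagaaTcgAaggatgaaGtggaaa
Hoxc10 (chr15:102970971-102971018, plus strand, exon 2 of 2): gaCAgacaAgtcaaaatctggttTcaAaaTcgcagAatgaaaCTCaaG
Hoxc11 (chr15:102956603-102956650, plus strand, exon 2 of 2): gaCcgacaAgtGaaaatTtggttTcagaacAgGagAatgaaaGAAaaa
Of the 48 positions, 25 are the same in all 9 genes. Over the 180 bases of the whole homeobox Hoxc4 and Hoxc5 share 71.1%, Hoxc5 and Hoxc6 77.8%, Hoxc10 and Hoxc11 67.2%, and Hoxc4 and Hoxc11 52.2%. The libraries read the 3′ ends of transcripts, and no member overlaps another on its strand within the last 500 bases. A second Hoxc5 transcript model overlaps Hoxc10 exons further upstream. Reads there do not tell Hoxc5 and Hoxc10 apart by position, and how they were counted or left out was not examined.

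In mesenchyme, intermediate stroma and smooth muscle Hoxc4 to Hoxc10 were higher in the oviduct, and Hoxc11, near 0 there, was higher in the uterus. Hoxc10 was held in both organs and stood above Hoxc11 in uterine stroma as well. Against mesenchyme, the organ difference was smaller for 5 of 7 tested members in pericytes, with 11.5% of all genes called, and for 6 of 7 in mesothelium, with 20.4% called, and pericytes and mesothelium were not tested against each other. Of the HoxC genes with more than 2 UMIs in the epithelium of an organ, Hoxc4 and Hoxc5 in the oviduct were those above what free RNA could supply. Blood endothelium held few HoxC UMIs in either organ.

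**Figure D1:**
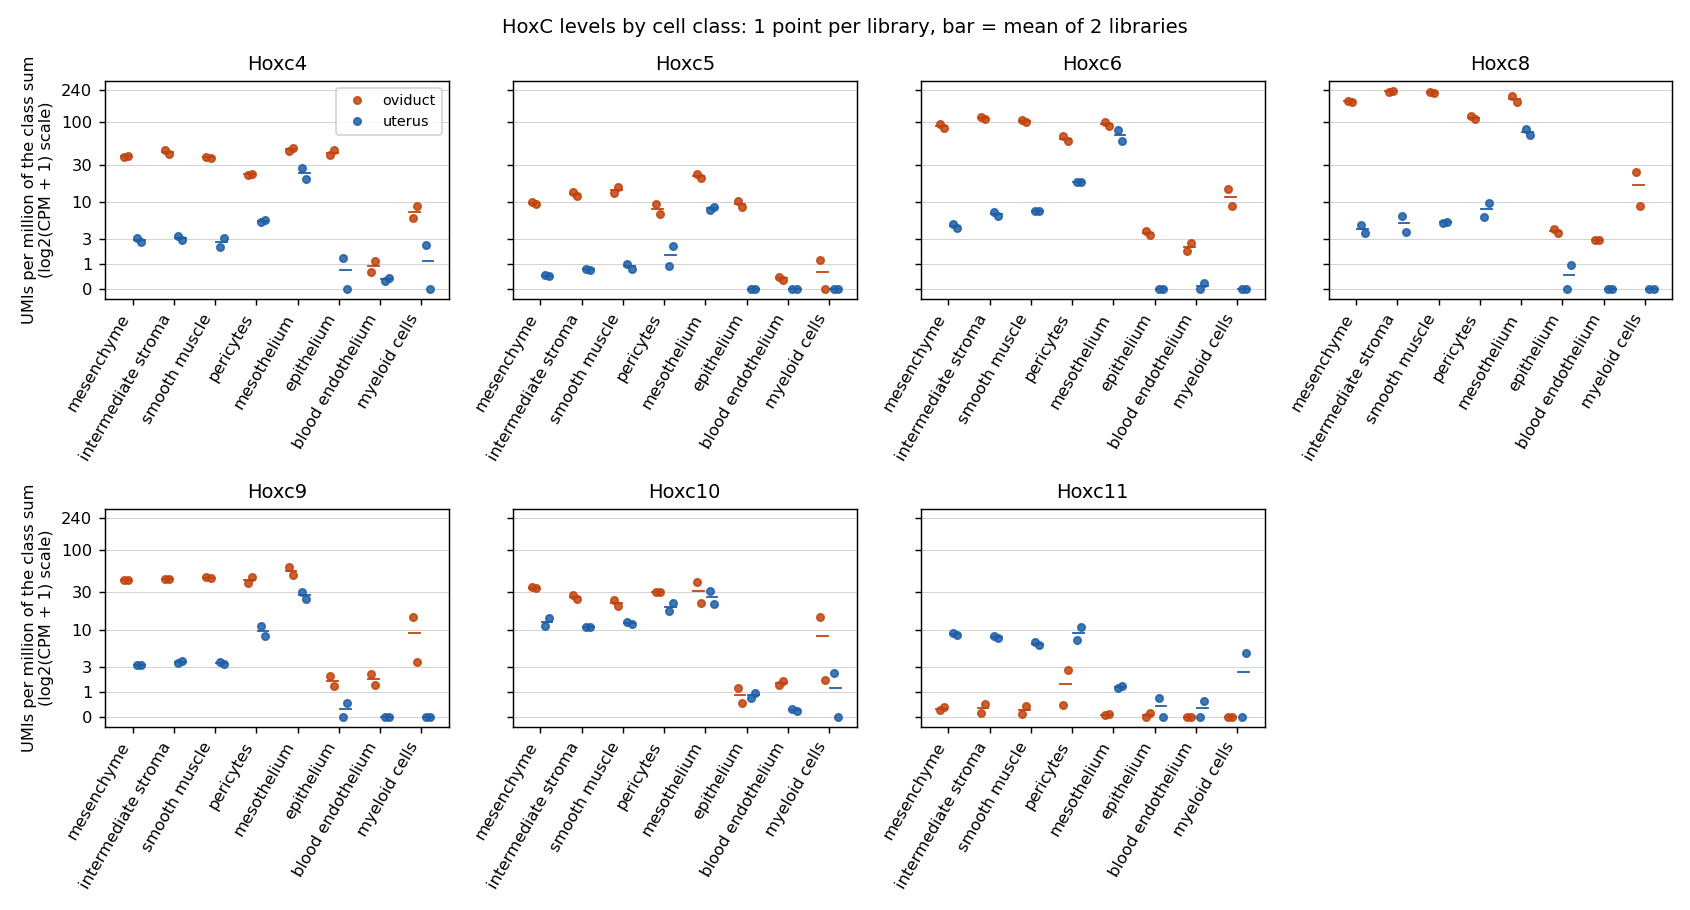
HoxC levels in 8 cell classes of the neonatal oviduct and uterus, on a log2(CPM + 1) axis labelled in CPM; each point is 1 library and each bar the mean of the 2 libraries of an organ. Hoxc8 lies between 108 and 236 CPM in all oviduct stromal and mesothelial sums, and in the uterus its highest sums are those of mesothelium, 69.5 and 82.9 CPM.

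Hoxc4, the most 3′ member, gave 37.9 and 38.8 CPM in the oviduct mesenchyme libraries and 3.06 and 2.65 CPM in the uterine ones. Hoxc5, its neighbour, gave 10.0 and 9.54 CPM against 0.480 and 0.437 CPM. Hoxc6, a trunk-level gene, gave 93.2 and 83.3 CPM against 5.10 and 4.40 CPM. In these 3 genes the oviduct libraries stood far above the uterine ones and replicates lay close together.

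Hoxc8 showed the widest gap of the cluster in mesenchyme, with 181 and 175 CPM in the oviduct and 4.80 and 3.77 CPM in the uterus. Hoxc9 gave 43.0 and 42.4 CPM against 3.14 and 3.21 CPM. Hoxc10, the first of the more 5′ genes, gave 34.6 and 33.9 CPM against 11.3 and 14.4 CPM. Uterine mesenchyme thus held more of Hoxc10 than of Hoxc4, Hoxc6, Hoxc8 or Hoxc9, and the gap between the organs was narrower for Hoxc10.

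Hoxc11 ran the other way, with 0.201 and 0.316 CPM in the oviduct mesenchyme libraries and 9.16 and 8.55 CPM in the uterine ones. Hoxc12 and Hoxc13, the most 5′ genes, were at or under 3 UMIs in every class and organ, which allows no fold. Over all classes Hoxc12 gave 1 UMI, in oviduct mesenchyme.

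All 7 HoxC genes that passed the filter on low counts were called between the organs in mesenchyme (adjusted p under 0.05, edgeR quasi-likelihood test with Benjamini-Hochberg adjustment over all genes), where 43.6% of the 15228 genes tested were called. Log2 fold changes, coded oviduct minus uterus, were 3.68 ± 0.11 (SE) for Hoxc4, 4.34 ± 0.20 for Hoxc5, 4.15 ± 0.11 for Hoxc6 and 5.31 ± 0.12 for Hoxc8. They were 3.68 ± 0.10 for Hoxc9, 1.34 ± 0.12 for Hoxc10 and -5.21 ± 0.23 for Hoxc11. Their median was 3.68, against 0.00 for all genes tested. Since so large a share of genes differed between the organs, the count of members called is not particular to the cluster, and their sizes and their order along it are the description. Each of these 7 calls kept its side of the threshold and its direction under every alternative run.

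Intermediate stroma and smooth muscle repeated this profile: 7 of 7 tested members were called in both, where 27.8% and 27.9% of all genes tested were called. Hoxc8 gave 231 and 236 CPM in oviduct intermediate stroma against 6.58 and 3.85 CPM in the uterus, and 229 and 225 CPM against 5.29 and 5.46 CPM in smooth muscle. Log2 fold changes in intermediate stroma ran from 5.47 ± 0.16 for Hoxc8 to 1.24 ± 0.15 for Hoxc10, with Hoxc11 at -4.98 ± 0.45. In smooth muscle they ran from 5.37 ± 0.12 for Hoxc8 to 0.82 ± 0.14 for Hoxc10, with Hoxc11 at -5.00 ± 0.43.

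**Figure D2:**
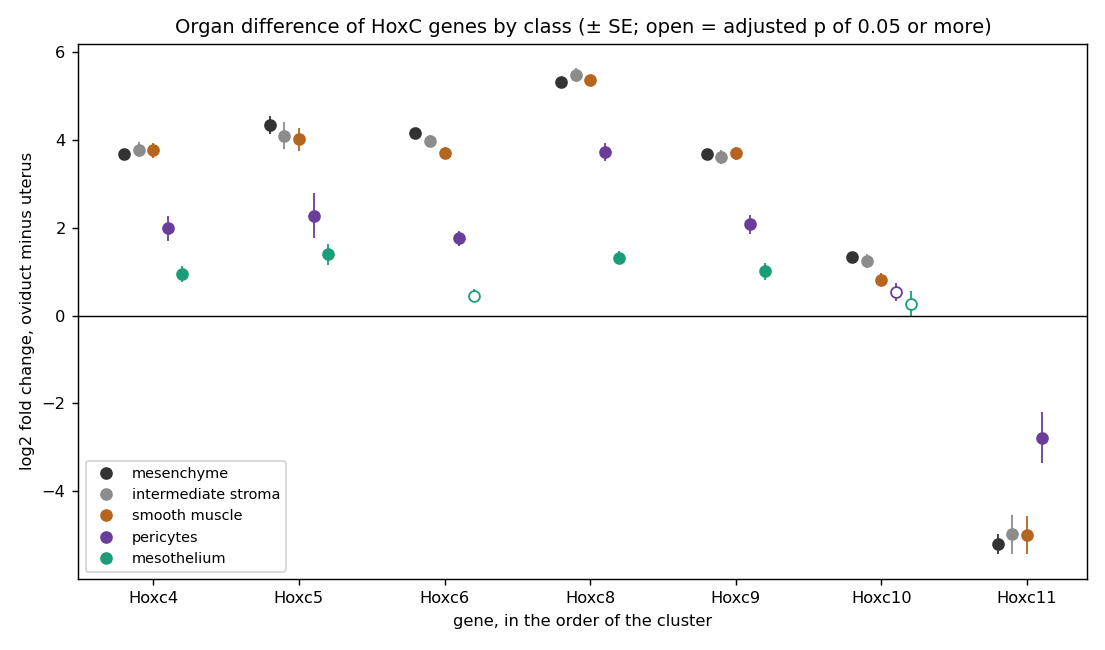
Log2 fold change of HoxC genes between oviduct and uterus (positive: higher in the oviduct) in 5 classes, with genes in cluster order; bars are SE and open points have an adjusted p of 0.05 or more. Mesenchyme, intermediate stroma and smooth muscle lie together between 3.6 and 5.5 from Hoxc4 to Hoxc9, pericytes lie lower, and mesothelium lies lowest, at 1.40 or less.

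Within each organ the 3 stromal classes differed little from each other in HoxC levels. The gate asked cells of all 3 classes for at least 3 of Pdgfra, Dcn, Lum, Col1a1, Col1a2 and Col3a1. Muscle cells without these mesenchymal genes would thus be missing, and the part of this rule in the likeness was not tested. Summed mesenchymal marker levels were 9758 to 10002 CPM in oviduct mesenchyme, 7264 to 7721 in intermediate stroma and 5283 to 5536 in smooth muscle. In the uterus they were lowest in mesenchyme, at 3595 to 3704 CPM. There they were 5388 to 5611 CPM in intermediate stroma and 4388 to 4809 CPM in smooth muscle, and their part was not tested. In the oviduct, smooth muscle stood above mesenchyme of the same libraries in Hoxc8 (log2 0.45 ± 0.04), Hoxc6 (0.31 ± 0.05), Hoxc5 (0.65 ± 0.11) and Hoxc9 (0.18 ± 0.06), and below it in Hoxc10 (-0.53 ± 0.09), 5 of 7 tested members with 35.9% of all genes called. Intermediate stroma was higher in Hoxc8 (0.43 ± 0.04), Hoxc6 (0.37 ± 0.05), Hoxc5 (0.43 ± 0.13) and Hoxc4 (0.22 ± 0.07) and lower in Hoxc10 (-0.33 ± 0.08), also 5 of 7, with 14.9% called. In the uterus Hoxc6 alone was called in either class, 0.75 ± 0.14 in smooth muscle and 0.55 ± 0.15 in intermediate stroma, with 26.2% and 18.3% of all genes called. These small differences depend on where the cells are divided: with cells classed by Leiden clusters named from the same markers, in place of the marker gate, Hoxc9 in oviduct smooth muscle became 0.0313 (adjusted p = 0.730, edgeR). With 2 other random seeds of that clustering, added after the data were seen, it was -0.0672 (0.385) and 0.0569 (0.479). Uterine Hoxc9 in smooth muscle, not called by the gate, turned to -0.52 (adjusted p = 0.0278) with seed 2, and uterine Hoxc11 passed with each of the 3 clusterings, at -0.33, -0.39 and -0.44. Over both organs 4 of 7 members were called in smooth muscle, with 38.3% of all genes called, 2 with clusters of seed 1 and 1 without uterus replicate 2. DESeq2 called 3 members in oviduct smooth muscle and 2 in oviduct intermediate stroma. The share of all genes called under these alternatives is not given, so the lower counts are not set against it.

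Whether the organ difference itself varied by class was tested as an interaction with mesenchyme, in 1 edgeR model of both classes with a term for each library. None of the 7 tested members was called in intermediate stroma, where 13% of all genes were called and the members' values lay between -0.23 ± 0.49 (Hoxc5) and 0.16 ± 0.17 (Hoxc8). In smooth muscle, with 18.8% called, the organ difference was smaller for Hoxc10 (interaction -0.51 ± 0.16) and for Hoxc6 (-0.44 ± 0.14). With classes by clusters the call of Hoxc6 was lost, at -0.0991 (adjusted p = 0.718, edgeR), -0.16 with seed 1 (0.608) and 0.10 with seed 2 (0.737). Hoxc8 passed in its place, with a larger organ difference in smooth muscle (0.74, 0.59 and 0.78). DESeq2 called 0 members in smooth muscle, and leaving out a library lowered the count too. The share of all genes called under these alternatives is not given.

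Pericytes, the contractile cells that wrap small vessels, had the same direction as mesenchyme but a narrower split for 5 of 7 tested members. Hoxc6 gave 67.1 and 58.6 CPM in the oviduct and 18.1 and 18.1 CPM in the uterus, so that uterine pericytes stood above uterine mesenchyme and oviduct pericytes below oviduct mesenchyme. Hoxc8 gave 117 and 108 CPM against 6.35 and 9.82 CPM. Hoxc9 gave 39.3 and 45.9 CPM against 11.3 and 8.31 CPM, and Hoxc4 gave 22.5 and 23.2 CPM against 5.44 and 5.66 CPM.

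In pericytes 6 of 7 tested members were called between the organs, where 5.1% of all genes tested were called. Log2 fold changes were 1.99 ± 0.29 for Hoxc4, 2.27 ± 0.51 for Hoxc5, 1.76 ± 0.17 for Hoxc6, 3.74 ± 0.20 for Hoxc8, 2.08 ± 0.22 for Hoxc9 and -2.78 ± 0.57 for Hoxc11. Hoxc10 (0.54 ± 0.21, adjusted p = 0.167, edgeR) did not pass, with 30.1 and 30.1 CPM against 17.7 and 22.3 CPM. The calls of Hoxc5, which rests on 8 uterine UMIs, and of Hoxc11, on 6 oviduct UMIs, did not hold in DESeq2 (adjusted p = 0.216 and 0.0848) nor without oviduct replicate 1 (0.252 and 0.169).

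Against uterine mesenchyme, uterine pericytes were higher in 6 of 7 tested members, with 31.1% of all genes called: Hoxc6 by 1.85 ± 0.19, Hoxc5 by 1.74 ± 0.68, Hoxc9 by 1.52 ± 0.26, Hoxc4 by 0.88 ± 0.31, Hoxc8 by 0.87 ± 0.27 and Hoxc10 by 0.54 ± 0.16. Against oviduct mesenchyme, with 38.7% called, oviduct pericytes were lower in Hoxc4 (-0.77 ± 0.15), Hoxc8 (-0.68 ± 0.08) and Hoxc6 (-0.51 ± 0.10) and higher in Hoxc11 (2.33 ± 0.84), and the other 3 did not pass. Hoxc11 in oviduct pericytes was 1 UMI in replicate 1 and 5 UMIs in replicate 2, and 0.86 (adjusted p = 0.758) without replicate 2. DESeq2 called 3 members in uterine pericytes, and fewer were also called without uterus replicate 2. The share of all genes called in these runs is not given, so the lower counts are not set against it.

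The organ difference in pericytes differed from that in mesenchyme for 5 of 7 tested members, with 11.5% of all genes called. It was smaller in pericytes, with interactions of -2.36 ± 0.22 for Hoxc6, -1.65 ± 0.36 for Hoxc4, -1.56 ± 0.28 for Hoxc9, -1.54 ± 0.29 for Hoxc8 and -0.75 ± 0.21 for Hoxc10. Without uterus replicate 2 the call of Hoxc8 (adjusted p = 0.188, edgeR) and that of Hoxc10 (0.0725) were lost, leaving 3 members, Hoxc10 was also lost without oviduct replicate 1 (0.0634) and in DESeq2 (0.276), and Hoxc4 was lost with clusters of seed 1 (0.0818). How many of all genes lost their call in these runs is not given. Summed mesenchymal marker levels were 3577 to 3724 CPM in oviduct pericytes and 2287 to 3206 CPM in uterine ones. Summed smooth muscle marker levels were 3978 to 4447 CPM against 2455 to 2881 CPM, with 10 of 10 markers of either list above the floor of 3 UMIs in both organs. Epithelial, blood endothelial, lymphoid, erythroid, glial and neuronal markers and those of pericytes themselves were also higher in oviduct pericytes. Mesothelial and myeloid markers were higher in uterine pericytes, and the part of any of these lists in the HoxC levels was not tested.

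Mesothelium, the sheet that covers both organs on the outside, was the class in which the uterus kept the 3′ and middle HoxC genes. Hoxc8 gave 205 and 175 CPM in the oviduct and 82.9 and 69.5 CPM in the uterus, where mesenchyme had under 5 CPM. Hoxc6 gave 100.02 and 90.4 CPM in the oviduct and 80.4 and 59.5 CPM in the uterus. For Hoxc6 the nearest libraries of the organs lay closer together than the uterine libraries did, and for Hoxc8 the organs stood well apart.

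Hoxc4 gave 44.2 and 48.4 CPM in oviduct mesothelium and 27.6 and 20.04 CPM in the uterus. Hoxc5 gave 22.8 and 20.6 CPM against 7.98 and 8.68 CPM, and Hoxc9 gave 62.1 and 48.9 CPM against 30.7 and 24.7 CPM. Hoxc10 gave 40.0 and 22.5 CPM against 31.3 and 21.4 CPM, so its organs overlapped. Hoxc11, on in the other uterine stromal classes, gave 2 UMIs in each uterine library and 1 in each oviduct library of mesothelium.

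Between the organs, 4 of 6 tested members were called in mesothelium, where 8.32% of all genes tested were called: Hoxc5 at 1.40 ± 0.24, Hoxc8 at 1.32 ± 0.14, Hoxc9 at 1.01 ± 0.19 and Hoxc4 at 0.96 ± 0.18. Hoxc10 stood at 0.26 ± 0.30 (adjusted p = 0.678, edgeR). Hoxc6 stood at 0.45 ± 0.15 (adjusted p = 0.0912) and passed when replicate numbers, which mark pools of the same neonates, were entered as a block (0.46, adjusted p = 0.0192). Hoxc11, not tested, was 19.6 times higher in the uterus, with an exact 95% counting interval of 2.80 to 216, and free RNA could supply 50.4% of its uterine counts.

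Against uterine mesenchyme, all 7 tested members differed in uterine mesothelium, with 41.4% of all genes called. Hoxc5 was higher by 3.92 ± 0.44, Hoxc8 by 3.90 ± 0.14, Hoxc6 by 3.63 ± 0.15, Hoxc9 by 2.87 ± 0.23, Hoxc4 by 2.81 ± 0.23 and Hoxc10 by 0.80 ± 0.27, and Hoxc11 fell by 3.03 ± 0.51. In the oviduct only Hoxc5 (1.06 ± 0.11) and Hoxc9 (0.29 ± 0.08) were called, with 58.9% of all genes called. With classes by clusters 5 members were called there, and 4 with seed 2, as Hoxc4 (0.28), Hoxc10 (-0.35) and Hoxc11 (-2.34) passed. These counts are given without the share of all genes called with clusters. Oviduct Hoxc6 (0.01 ± 0.07) and Hoxc8 (-0.00 ± 0.07) in mesothelium stood within their SE of mesenchyme. The interaction was called for 6 of 7 tested members, with 20.4% of all genes called: the organ difference was smaller in mesothelium, with values of -3.91 ± 0.15 for Hoxc8, -3.62 ± 0.16 for Hoxc6, -2.86 ± 0.43 for Hoxc5, -2.64 ± 0.24 for Hoxc4, -2.59 ± 0.24 for Hoxc9 and -1.02 ± 0.29 for Hoxc10.

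The calls on uterine Hoxc10 rest on few cells and were lost when either uterine library was left out, with an interaction of -0.50 (adjusted p = 0.627, edgeR) without uterus replicate 1 and -1.44 (0.0752) without replicate 2. The interaction of Hoxc10 did not pass either without the filter on low counts (adjusted p = 0.207), in DESeq2 (0.0502) or with free-RNA counts subtracted (0.0521). The interactions of the other 5 genes in mesothelium were called under every alternative run. Free RNA could supply at most 0.342% of Hoxc8 and 2.62% of Hoxc10 in uterine mesothelium, with Hoxc4, Hoxc5, Hoxc6 and Hoxc9 between these values. Summed mesenchymal marker levels were 8988 to 10895 CPM in uterine mesothelium and 6314 to 7072 CPM in oviduct mesothelium, against 3595 to 3704 CPM in uterine and 9758 to 10002 CPM in oviduct mesenchyme. Summed smooth muscle marker levels were 1662 to 1731 CPM against 715 to 762 CPM. Epithelial, pericyte and lymphoid markers were higher in oviduct mesothelium, as HoxC genes were. Epithelial markers summed to 2430 to 2559 CPM there, with 9 of 10 above the floor and 0 at 0, and to 1677 to 1738 CPM in uterine mesothelium, with 5 of 10 above it and 1 at 0. Pericyte markers summed to 126 to 168 CPM, with 7 of 9 above the floor and 1 at 0, and to 80.4 to 95.5 CPM, with 4 of 9 above it and 2 at 0. Lymphoid markers summed to 56.9 to 90.0 CPM, with 4 of 8 above the floor and 3 at 0, and to 41.8 to 49.4 CPM, with 2 of 8 above it and 3 at 0. Markers of blood endothelium, of erythroid cells, and of glia and neurons were higher in uterine mesothelium. Of the mesenchymal and smooth muscle lists 9 of 10 markers were above the floor of 3 UMIs in uterine and 10 of 10 in oviduct mesothelium, with 0 markers at 0, and the part of these levels in the result was not tested.

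**Figure D3:**
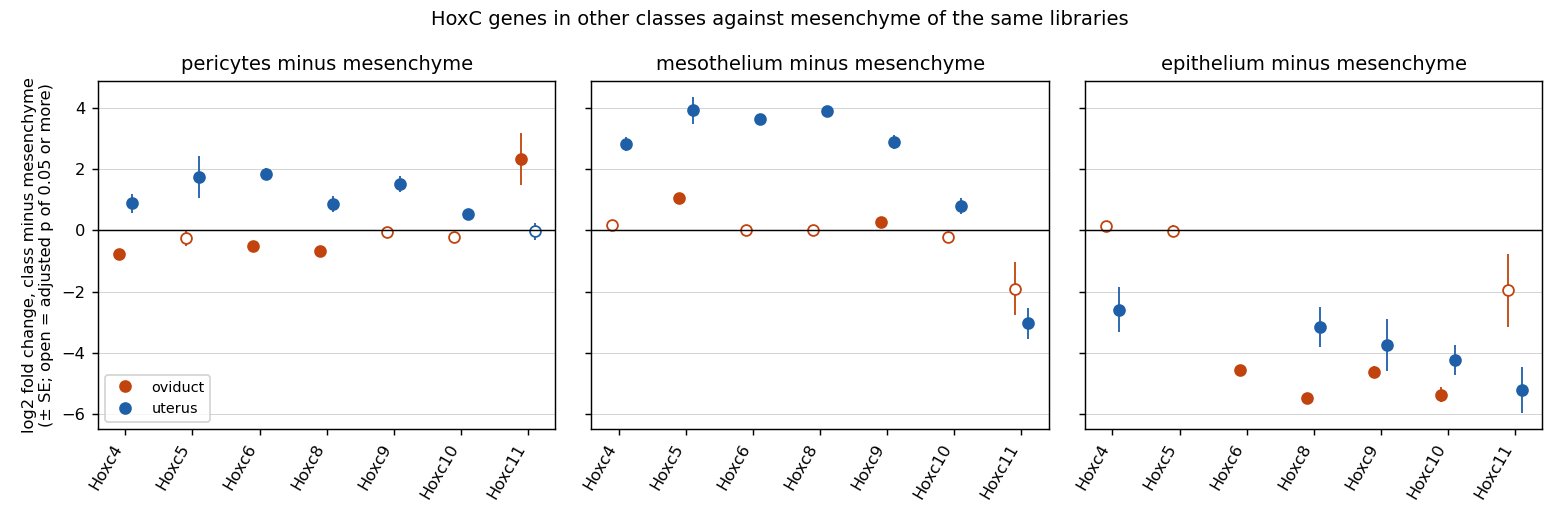
Log2 fold change of HoxC genes in pericytes, mesothelium and epithelium against mesenchyme of the same libraries, separately in the oviduct and the uterus; bars are SE, open points have an adjusted p of 0.05 or more, and genes with 0 UMIs in the class and organ are left out. Uterine mesothelium stands 2.81 to 3.92 above uterine mesenchyme from Hoxc4 to Hoxc9, and oviduct epithelium lies level with mesenchyme only in Hoxc4 and Hoxc5.

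Of the other clusters, Hoxd11 and Hoxa11, named after their values were seen, were also present in uterine mesothelium. Hoxd11 was at 195 ± 2.57 CPM in uterine mesothelium and 12.7 ± 1.73 CPM in oviduct mesothelium, and Hoxa11 at 37.3 ± 3.66 CPM against 0.639 ± 0.313 CPM. Of the 22 HoxA, HoxB and HoxD paralogs of the same groups, 16 were tested in mesothelium, where 9 were higher in the uterus and 0 were higher in the oviduct (median -1.19, against -0.00 for all genes, of which 8.32% were called in either direction). The 4 HoxC genes called there were all higher in the oviduct. In cells brought to 5000 UMIs, as means over 100 random draws, 57.1% of Hoxc6-positive and 49.3% of Hoxc8-positive mesothelial cells of uterus replicate 1 also had a Hoxd11 UMI. In replicate 2 these were 63.4% and 63.3%. Of all mesothelial cells 54.8% and 58.3% had a Hoxd11 UMI, close to the shares among HoxC-positive cells, and free RNA could supply at most 8.31% of Hoxd11 there.

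In epithelium, the lining of the tubes, the highest oviduct HoxC levels were those of the 3′ pair. Hoxc4 gave 39.1 and 45.0 CPM in the oviduct libraries, level with oviduct mesenchyme, and 2 and 0 UMIs in the uterine ones. Hoxc5 gave 10.6 and 8.72 CPM in the oviduct and 0 UMIs in the uterus. Free RNA could supply at most 11.5% of Hoxc4 and 19.9% of Hoxc5.

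The next genes dropped away: Hoxc6 gave 3.97 and 3.44 CPM, Hoxc8 4.25 and 3.67 CPM, Hoxc9 2.06 and 1.38 CPM and Hoxc10 1.23 and 0.459 CPM in oviduct epithelium. For each of these 4 genes the free-RNA bound of the same libraries reached 100% of the counts, so they cannot be told from background. The bound rests on markers of other classes, which put free RNA at 20.2% and 18.3% of the UMIs in these sums. Haemoglobin genes put it at 1.77% and 1.83%, and what that lower estimate leaves of these 4 genes was not computed. Against oviduct mesenchyme, where 66.2% of all genes were called, Hoxc4 (0.15 ± 0.12, adjusted p = 0.261, edgeR) and Hoxc5 (-0.01 ± 0.19, adjusted p = 0.976) did not pass. Hoxc8 (-5.47 ± 0.15), Hoxc10 (-5.36 ± 0.24), Hoxc9 (-4.63 ± 0.20) and Hoxc6 (-4.55 ± 0.15) were lower. The level thus dropped between Hoxc5 and Hoxc6. In uterine epithelium, which held 9 HoxC UMIs in all, 6 of 7 tested members were lower than in mesenchyme, with 47.4% of all genes called.

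Between the organs, the 4 members that passed the filter on low counts, Hoxc4, Hoxc5, Hoxc6 and Hoxc8, were called in epithelium. They gave 2, 0, 0 and 2 uterine UMIs and so passed that filter through the oviduct, where they are high. Their count is therefore not set against the 22.1% of all genes called. Hoxc4 was 76.1 times higher in the oviduct by summed counts (exact 95% counting interval 20.98 to 630) and Hoxc5 at least 11.5-fold higher, taking 3 UMIs over both uterine libraries as the floor. The calls of Hoxc6 and Hoxc8 concern counts that free RNA could supply, and 2 members were called with free-RNA counts subtracted, as also when either oviduct library was left out. What share of all genes was called in those runs is not given. The interaction with mesenchyme was called for Hoxc4, 1 of 7 tested members with 19.3% of all genes called. It was lost without uterus replicate 2 (adjusted p = 0.226) and in DESeq2 (0.115). Mesothelial markers moved with Hoxc4 and Hoxc5 in epithelium. Their summed level was 206 to 217 CPM in the oviduct, with 8 of 10 markers above the floor and 0 at 0, against 46.6 to 85.2 CPM in the uterus, with 3 of 10 above it and 3 at 0. In oviduct mesothelium itself it was 2847 to 2956 CPM. Summed mesenchymal markers in epithelium were 201 to 307 CPM against 191 to 235 CPM, and the part of any of these lists in the result was not tested.

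Of the paralogs of Hoxc4 in epithelium, Hoxb4 was at 42.9 CPM in the oviduct and 43.9 CPM in the uterus, and Hoxa4 at 0.848 and 0 CPM. Hoxb6, a paralog of Hoxc6, was at 51.9 CPM in oviduct epithelium and 44.8 CPM in uterine epithelium. The other paralogs, Hoxd4 and Hoxa6, and the SD and free-RNA bounds of these genes are not given here. Epithelium of both organs thus gave similar mean levels of Hoxb4 and of Hoxb6, which are not set against a free-RNA bound here. By that bound Hoxc4 was found in the oviduct and Hoxc6 in neither organ, so these genes are not judged alike.

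Blood endothelium carried little HoxC RNA. The summed level of the 9 genes was 9.76 ± 0.448 CPM in the oviduct and 0.900 ± 0.559 CPM in the uterus, against 391 ± 11.98 and 37.3 ± 0.275 CPM in mesenchyme. Hoxc8 gave 14 and 10 UMIs in the oviduct libraries against 0 in both uterine ones, at least 8.98-fold higher by counts. It was the single member tested between the organs and was called, with 3.77% of all genes called. With 0 uterine UMIs it passed the filter on low counts through the oviduct, so its call is not set against that share. With free-RNA counts subtracted, with classes by clusters, under stricter cell filters and when either oviduct library was left out, 0 members were called. The share of all genes called in these runs is not given. Free RNA could supply 63.1% of Hoxc8, 34.2% of Hoxc9 and 22.2% of Hoxc10 in oviduct endothelium. Mesenchymal markers summed to 261 to 264 CPM in oviduct and 92.4 to 143 CPM in uterine endothelium, and smooth muscle markers to 264 to 278 against 196 to 204 CPM. Markers of pericytes, mesothelium, lymphoid cells and blood endothelium itself were also higher in the oviduct. Those of erythroid cells and of glia and neurons were higher in the uterus, and the part of these lists was not tested. Against mesenchyme 6 of 7 tested members were lower in oviduct endothelium and 7 of 7 in uterine endothelium, with 63.5% and 61.4% of all genes called. The interaction was called by edgeR for 0 of 7 tested members, with 12.3% of all genes called. Hoxc4 alone had an unadjusted p under 0.05 there (0.0462, log2 -2.28 ± 1.08).

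Myeloid cells were too few for a comparison of the organs: 0 HoxC genes passed the filter, and 0% of the 6121 genes tested were called by edgeR. Their oviduct Hoxc8 levels of 24.5 and 8.87 CPM come from 20 and 5 UMIs, of which free RNA could supply 72.3%. Against mesenchyme, 6 of 7 tested members were lower in oviduct myeloid cells and 3 of 7 in uterine ones, with 36.5% and 32.4% of all genes called. The interaction was called for 0 of 7 members in myeloid cells, 0 of them at an unadjusted p under 0.05 in edgeR, with 1.42% of all genes called.

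For each gene the 16 class-by-organ levels were put in order. The 5 highest places of Hoxc8 were held by oviduct intermediate stroma (234 CPM), smooth muscle (227), mesothelium (190), mesenchyme (178) and pericytes (113), followed by uterine mesothelium (76.2), and only mesothelium and mesenchyme overlapped among these neighbours. Hoxc6 had the same first place, with uterine mesothelium (70.0 CPM) just ahead of oviduct pericytes (62.9) and overlapping them. For Hoxc5 the first place was oviduct mesothelium (21.7 CPM), which overlapped no other group, and for Hoxc9 it was also oviduct mesothelium (55.5). For Hoxc10, 7 neighbouring groups from oviduct mesenchyme (34.2 CPM) to uterine pericytes (19.98) lay close together. Oviduct mesothelium (22.5 to 40.0 CPM over libraries) and uterine mesothelium (21.4 to 31.3) overlapped both oviduct pericytes and oviduct intermediate stroma, which did not overlap each other. For Hoxc11 the first 4 places were uterine pericytes (9.10 CPM), mesenchyme (8.85), intermediate stroma (8.14) and smooth muscle (6.56). Uterine pericytes, at 7.25 and 10.9 CPM, overlapped mesenchyme and intermediate stroma, and no other pair of these 4 overlapped.

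Single cells were compared at 5000 UMIs each, leaving out shallower cells, and shares are means over 100 random draws. Of oviduct mesenchymal cells 79.4% and 77.9% had a UMI of any HoxC gene (91.0% and 85.8% before thinning), against 15.9% and 15.2% in the uterus (33.2% and 32.1%). In mesothelium the shares were 84.7% and 80.6% in oviduct libraries, against 63.4% and 59.0% in uterine ones (95.9%, 92.5%, 86.4% and 81.5% before thinning). HoxC UMIs in uterine mesothelium were thus spread over most cells at this depth. In uterine mesenchyme before thinning, Hoxc8 UMIs were found in 108 of 1925 and 99 of 2240 cells, with at most 3 UMIs in a cell.

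Within oviduct mesenchyme the genes were not spread alike over cells. Hoxc10 was found in 7.40% of Hoxc8-positive and 17.2% of Hoxc8-negative cells of replicate 1, and in 7.09% and 15.5% of replicate 2. Hoxc6 went the other way, with 39.8% against 28.9% and 37.1% against 27.9%. Hoxc4 did as well, with 19.4% against 12.5% and 20.1% against 14.2%. Hoxc9 was close to level, with 18.9% against 18.7% and 18.4% against 17.4%. Free RNA could supply at most 3.72% of Hoxc8, 3.68% of Hoxc10, 5.34% of Hoxc6, 5.23% of Hoxc4 and 5.57% of Hoxc9 UMIs in oviduct mesenchyme.

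Hoxa10, the HoxA paralog of Hoxc10, kept company with Hoxc10: it was found in 35.3% of Hoxc10-positive and 9.53% of Hoxc10-negative cells of replicate 1 and in 33.8% and 7.49% of replicate 2. In Hoxc8-positive cells it was found in 7.09% and 6.50%, and in Hoxc8-negative cells in 18.1% and 14.3%. Oviduct smooth muscle showed the same pattern, with Hoxc10 in 6.09% and 4.59% of Hoxc8-positive and 13.9% and 13.2% of Hoxc8-negative cells. Cells of a library are not replicates, so these shares carry no test.

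**Figure D4:**
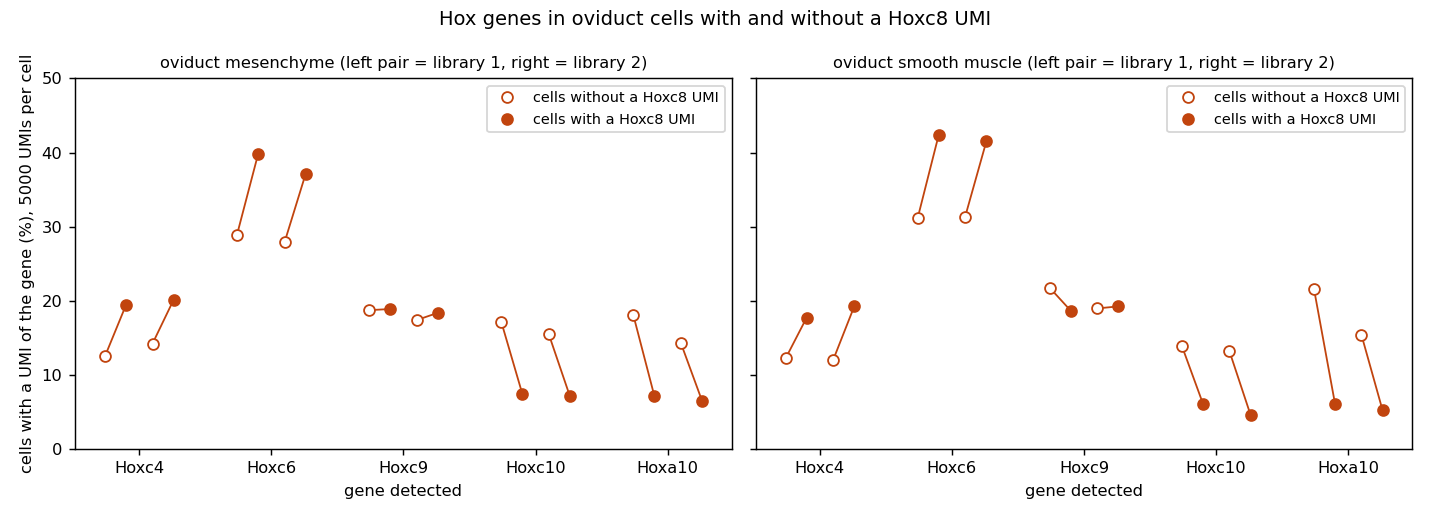
Share of oviduct mesenchymal and smooth muscle cells with a UMI of Hoxc4, Hoxc6, Hoxc9, Hoxc10 or Hoxa10, among cells without (open) and with (filled) a Hoxc8 UMI, in the 2 oviduct libraries, with every cell thinned to 5000 UMIs (means over 100 draws). Hoxc4 and Hoxc6 are more frequent in Hoxc8-positive cells, Hoxc10 and Hoxa10 less frequent, and Hoxc9 lies close to level, with 18.4% to 18.9% against 17.4% to 18.7% in mesenchyme.

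In uterine mesenchyme before thinning, Hoxc8-positive cells were set beside the others, in cells not matched for depth. Free RNA could supply at most 5.86% of Hoxc8 and 7.07% of Hoxc9 UMIs there. Hoxa10 was found in 95.4% and 92.9% of the Hoxc8-positive and in 92.9% and 87.9% of the Hoxc8-negative cells. Hoxc9 was found in 21.3% and 17.2% of them and in 2.53% and 3.04% of the others. At 5000 UMIs it was found in 11.3% and 8.90% of Hoxc8-positive cells, which numbered 40.99 and 35.01 on average over the draws, and in 1.31% and 1.46% of the others.

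Across the 32 sums of 8 classes in 4 libraries, levels of the middle genes moved closely together: Pearson's r of log2(CPM + 1) was 0.988 for Hoxc6 and Hoxc9, 0.984 for Hoxc8 and Hoxc9 and 0.980 for Hoxc6 and Hoxc8. Hoxc4 and Hoxc5 formed a second pair with 0.944. Hoxc10 stood at 0.899 with Hoxc9 and 0.654 with Hoxc4, and Hoxc11 at 0.206 with Hoxc10 and -0.315 with Hoxc4. The sums share libraries, animals and depth, so these values are descriptions without a p.

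Outside the cluster, among 12833 genes compared, Hoxc4 was most like Btg2 (0.951), an immediate early antiproliferative gene, Zbtb42 (0.923) and Fos (0.910), an AP-1 subunit that is an immediate early gene. Hoxc5 was most like Btg2 (0.949), Zbtb42 (0.913) and Socs1 (0.905), a brake on cytokine signalling. Hoxc6 was most like Slit2 (0.945), a guidance ligand, Dab1 (0.939), a reelin adaptor, and Itm2a (0.937). Hoxc8 was most like Slit2 (0.935), Dab1 (0.932) and Osr1 (0.918), a zinc finger factor of urogenital mesoderm, and Hoxc9 most like Lsamp (0.939), Slit2 (0.932) and Itm2a (0.928).

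Hoxc10 was most like Spats2l (0.971), Dlk1 (0.956) and Col5a1 (0.950), a fibrillar collagen gene. Hoxc11 was most like Slc6a2 (0.903), Hoxa11 (0.894), its own paralog, and Rorb (0.844).

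Paralogs of the other clusters did not move as 1 group in mesenchyme. Of the 22 HoxA, HoxB and HoxD genes of groups 4 to 13, 19 were tested, 6 were higher in the oviduct, 9 were higher in the uterus and 4 did not pass (median log2 fold change -0.26, against 0.00 for all genes, of which 43.6% were called). Hoxa7 gave 76.4 ± 6.67 CPM against 2.34 ± 0.135 CPM (4.96 ± 0.12), Hoxa4 4.13 ± 0.367 against 0.697 ± 0.0590 (2.49 ± 0.23) and Hoxa5 29.9 ± 2.21 against 5.45 ± 0.500 (2.38 ± 0.11). Toward the uterus, Hoxa11 gave 3.40 ± 0.352 against 145 ± 13.2 CPM (-5.49 ± 0.11), Hoxd12 was 113 times higher by counts (19.7 to 4501) and Hoxd13, with 0 oviduct UMIs, at least 12.8-fold higher.

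Pbx, Meis and Pknox proteins bind DNA together with Hox proteins. Of these 9 cofactor genes 3 were higher in oviduct mesenchyme, 3 were higher in uterine mesenchyme and 3 did not pass (median -0.03), with 43.6% of all genes called. Those higher in the oviduct included Pbx3 (0.75 ± 0.09) and Meis1 (0.39 ± 0.08). Meis2 (264 ± 2.02 against 390 ± 2.71 CPM, -0.63 ± 0.08), Pknox1 (-0.57 ± 0.09) and Pknox2 (-0.52 ± 0.11) were higher in the uterus.

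Polycomb, trithorax and Cdx genes set and keep the on and off states of Hox clusters. Of 26 listed, 24 were tested, and 5 were called in each direction (median 0.03), a share near the 43.6% of all genes called. Those toward the oviduct included Cbx8 (0.69 ± 0.17) and Ezh1 (0.40 ± 0.09), and those toward the uterus Cdx1 (-3.69 ± 0.63), at 0.732 ± 0.374 CPM in the uterus and 0.0511 ± 0.0226 CPM in the oviduct, Cbx2 (-0.81 ± 0.18) and Jarid2 (-0.56 ± 0.09).

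Hotair (chr15:102944062-102947730, minus strand) is the noncoding RNA transcribed against the cluster from between Hoxc12 and Hoxc11. It gave 8 and 5 UMIs in oviduct mesenchyme and 27 and 22 UMIs in uterine mesenchyme (log2 fold change -2.27 ± 0.42), the same direction as its neighbour Hoxc11. Of the 11 genes of the list of antisense and flanking genes 9 were tested, and the other 8 did not pass, with 43.6% of all genes called. In the other classes Hotair did not pass the filter on low counts and was not tested. It was at 3 UMIs in oviduct and 11 in uterine intermediate stroma, with a ratio of 3.62 and an exact 95% counting interval of 0.957 to 20.2. It was at 7 UMIs in uterine smooth muscle against 0 in the oviduct, at least 3.43-fold higher, and at or under 4 UMIs in every sum of pericytes, mesothelium, epithelium, endothelium and myeloid cells.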

How the data were processed

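Single-cell RNA was measured with Chromium Single Cell 3' v3.1 kits after enzymatic digestion (DNase I, Collagenase B, Dispase II), per the labels' protocols. The authors deposited UMI counts per gene and barcode, called with Cell Ranger 6.0.1, and matrices of all barcodes from version 4, per the file headers. The submitters' processing notes name mm10 and Seurat 4.2.3, and the gene annotation is not given in the sources used here. Of the 31053 gene IDs, 99.6% are in GENCODE M21.

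Filters asked for 500 genes or more and 15% mitochondrial UMIs or less, which left 20164 of 26619 barcodes after removal of 1162 called doublets at an expected 0.8% per 1000 cells. Classes were gated on summed marker levels, with thresholds set after the marker levels were seen, and 1040 cells passed no gate. Counts were summed per library and class (410387 to 44747820 UMIs). Oviduct and uterus were compared within each class by edgeR 4.0.16 (quasi-likelihood, TMM, filterByExpr, R 4.3.3), and classes with mesenchyme in models with a term for each library. Adjusted p-values are Benjamini-Hochberg values over all genes tested, with a threshold of 0.05. The share of all genes called is given for the main tests only, not for the alternatives. Scripts were tested on simulated data. The free-RNA bound is the most that free RNA, as seen in barcodes of at most 100 UMIs, could supply. It was scaled by haemoglobin genes or by genes of other classes, whichever gave more, and is an upper bound. A group with 0 UMIs was set to 3 counts. Intervals are exact, at 95%, and cover counting error only.

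Replicate numbers pair the organs because the same neonates gave both. Correlations of same-numbered deviations ran from -0.0986 in epithelium to 0.202 in mesenchyme, and the block is an alternative. Other alternatives were DESeq2 1.42.0 (its test and its size factors), no filter on low counts, classes by Leiden clusters (scanpy 1.11.5, with 2 further seeds added after the data were seen), stricter cell filters, doublets kept, free-RNA counts subtracted, cells of at least 5000 UMIs and each library left out.

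Named genes are all HoxC genes, the 3 largest called changes per direction of each list in mesenchyme, and the 3 genes most like each member. Some items that this rule takes in are not reported here. Paralogs and markers named beside a result (Hoxd11, Hoxa11, Hoxa10, Hoxb4, Hoxb6 and Hoxa4 in single classes) were chosen after their values were seen. Members and lists were chosen with earlier results of these data known.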

Additional observations from a re-analysis of the deposited data

Results flagged for a closer look

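For 14 gene and class pairs the difference between oviduct and uterus was not the same as in mesenchyme, by the interaction term of the edgeR model with Benjamini-Hochberg adjustment over all genes. Of all genes tested 20.4% were called in mesothelium, 11.5% in pericytes, 18.8% in smooth muscle and 19.3% in epithelium, against 6, 5, 2 and 1 of 7 members. In mesothelium the log2 organ difference was shifted by -2.64 for Hoxc4, -2.86 for Hoxc5, -3.62 for Hoxc6, -3.91 for Hoxc8, -2.59 for Hoxc9 and -1.02 for Hoxc10. In pericytes it was shifted by -1.65 for Hoxc4, -2.36 for Hoxc6, -1.54 for Hoxc8, -1.56 for Hoxc9 and -0.75 for Hoxc10. In smooth muscle the shifts were -0.44 for Hoxc6 (adjusted p = 0.0431) and -0.51 for Hoxc10 (adjusted p = 0.0317), neither of which held in DESeq2. Hoxc10 in mesothelium and in pericytes was also lost in DESeq2 (adjusted p = 0.0502 and 0.276). Hoxc10 in mesothelium was lost without either uterine library, Hoxc8 and Hoxc10 in pericytes without uterus replicate 2, and Hoxc10 in pericytes also without oviduct replicate 1 (0.0634). Hoxc4 in pericytes was lost with clusters of seed 1 (0.0818).

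In epithelium the shift went the other way for Hoxc4, by 2.74 (adjusted p = 0.00875), and rests on 2 uterine UMIs. It was lost in DESeq2 (0.115) and without uterus replicate 2 (0.226).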

How the results depend on the processing

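Sign changes are counted here only where the value was called in the main test or in the alternative. Those between uncalled values count as kept, and values not tested in an alternative are left out. Between the organs, 536 gene values kept their side of the threshold, 9 lost it, 3 passed it and 0 changed sign. Of values against mesenchyme 1856 kept it, 83 lost it, 33 passed it and 2 changed sign, and of interactions 625, 22, 8 and 1. With the replicate block, which pairs pools of the same neonates, 7 members were called in mesenchyme, intermediate stroma and smooth muscle, 6 in pericytes and 5 in mesothelium, and no call was lost. In epithelium 2 members were called with free-RNA counts subtracted, and 2 to 4 with a library left out. In endothelium the count was 3 without the low-count filter and with doublets kept, 0 with clusters, stricter filters or free RNA subtracted, and 0 to 1 with a library left out.

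Member counts in this section stand without the share of all genes called under the same alternative, so a lower count is not particular to the members. Against mesenchyme, DESeq2 called 2 members in oviduct intermediate stroma, 3 in oviduct smooth muscle, 3 in uterine pericytes, 1 in oviduct mesothelium and 0 in uterine myeloid cells. With a library left out the counts were 3 to 5 in oviduct and 0 to 1 in uterine intermediate stroma, 2 to 6 in uterine pericytes, 1 to 4 in smooth muscle over both organs and 0 to 3 in uterine myeloid cells. Subtracting free RNA gave 1 in uterine myeloid cells.

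Stromal clusters were not stable: smooth muscle of oviduct replicate 1 held 1554 cells by clusters, 1831 with seed 1 and 2048 with seed 2. Seeds 1 and 2 were added after the data were seen. Clusters and both seeds gave 5 in uterine myeloid cells and 0 in endothelium between the organs. Clusters and seeds 1 and 2 gave 2, 2 and 3 in uterine smooth muscle. Clusters gave 5 and seed 2 gave 4 in oviduct mesothelium, and seed 1 gave 2 in smooth muscle over both organs. In smooth muscle Hoxc9 changed sign in the oviduct with seed 1 (-0.0672) and in the uterus with seed 2 (-0.52), and the interaction of Hoxc6 with seed 2 (0.10). The cause was not tested.

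Interaction counts in smooth muscle were 1 without the filter, 0 in DESeq2 and 0 to 1 with a library left out. They were 3 to 6 in pericytes with a library left out. In epithelium they were 0 in DESeq2, 2 with free RNA subtracted and 0 to 1 with a library left out. Clusters were not run for intermediate stroma, nor cells of at least 5000 UMIs for myeloid cells. Uterine epithelium, mesothelium and myeloid cells are limited by depth, at 410387 to 2143637 UMIs per sum.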
